A study of Mus musculus with 16 samples.

Results

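Sox2 binding at day 5 of reprogramming was compared between cells that received Oct4 and cells that received Oct4defSox2, an Oct4 mutated at the surface where it meets Sox2. The comparison asks how much of the genomic binding of Sox2 at day 5 differs between these cells. By the paper, the mutant was made to hinder pairing with Sox2 on the canonical SoxOct element, described below, and not at other arrangements of its half-sites. Members were all Sox2 ChIP-seq summits of the 2 libraries on chromosomes 1 to 19, X and Y, which gave 5793 summits for Oct4-SK and 21551 for Oct4defSox2-SK. Together these were 27344 of the 227116 summits listed for the 13 ChIP libraries of the series. A site was called shared when a summit of the other library lay within 100 bp, and a site with no such summit was called Oct4-SK-only or Oct4defSox2-SK-only. Because the lists differ in length, each comparison was repeated with the 5793 highest-scoring summits of each library, named equal numbers below. This kept the whole Oct4-SK list, down to a score of 4.03, but Oct4defSox2-SK summits only down to a score of 12.4.

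Both cocktails were delivered as retroviruses into OG2 MEFs, mouse embryonic fibroblasts with a GFP reporter for Oct4, and both held Sox2 and Klf4 (SK). The labelled difference was the virus of the POU factor, Oct4 or Oct4defSox2. Cells were cultured in iCD1, a chemically defined reprogramming medium, and day 5 was counted from the change into it. Each group was 1 library, so no spread between replicates could be measured and all intervals are 95% intervals for counting error among sites. They compare these libraries, not the conditions. Number of cells bound and strength of binding per cell cannot be told apart in such data.

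Sox2 is an HMG-box protein that bends DNA at a short motif and can engage closed chromatin. Oct4 reads the octamer with its POU-specific domain and POU homeodomain. On the SoxOct element, a Sox half-site followed by an octamer with a single base between them, Sox2 and Oct4 bind side by side. This element is found in enhancers of many pluripotency genes, among them the distal enhancer of Pou5f1, the gene of Oct4. Away from such elements, Sox2 binds single Sox motifs or enhancers that are already open in fibroblasts, where AP-1 factors bind.

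Example sequences of the motifs compared below are shown first. Of the 4 Oct4-SK-only sites with a SoxOct match and the highest scores, 3 are printed, with 12 bases to each side, the match in capitals and the strand of the match printed 5′ to 3′ (RefSeq sequence of GRCm38, the mm10 build). A SoxOct match may differ from the consensus by up to 2 mismatches. The Pou5f1 site is added because it lies in the upstream region that holds the distal enhancer.
Sox21, intergenic, chr14:118230344-118230358, plus strand: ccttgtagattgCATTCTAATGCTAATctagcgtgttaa
Pcdh9, intron, chr14:93701425-93701439, minus strand: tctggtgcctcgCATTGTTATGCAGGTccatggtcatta
Syk, intergenic, chr13:52562337-52562351, minus strand: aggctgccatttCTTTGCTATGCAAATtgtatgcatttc
Pou5f1, upstream, chr17:35504049-35504063, minus strand: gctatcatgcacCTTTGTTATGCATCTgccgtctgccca

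Shared sites also held SoxOct matches. Those at Palld, at an intergenic site nearest to BC052040, at Klf13 and at Dll1 are printed the same way. The sites at Palld and BC052040 are among the 4 strongest shared sites with SoxOct. Those in Rtkn2 and March1, with 2 mismatches each, are also among these 4 and are not printed. Klf13 and the weaker Dll1 site (12.7 in Oct4-SK) were taken from the gene lists, so this set was not chosen as the previous one.
Palld, intron, chr8:61517214-61517228, minus strand: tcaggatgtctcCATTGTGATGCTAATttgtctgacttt
BC052040, intergenic, chr2:115310375-115310389, plus strand: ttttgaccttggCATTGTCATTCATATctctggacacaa
Klf13, intergenic, chr7:63957247-63957261, plus strand: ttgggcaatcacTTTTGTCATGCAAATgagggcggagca
Dll1, intergenic, chr17:15380828-15380842, minus strand: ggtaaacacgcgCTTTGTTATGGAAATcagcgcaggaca

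The single Sox motif, searched as CCATTGT or CCTTTGT on both strands, was more common than SoxOct in every class of site. The examples are 3 of the strongest shared sites and 2 strong Oct4defSox2-SK-only sites, with the Sox match in capitals. An Oct4defSox2-SK-only site in Ntm (score 92.3), stronger than the one at Nedd9 (84.3), also held a SoxOct match with 2 mismatches and is not printed.
Mobp, intergenic, chr9:120149520-120149526, plus strand: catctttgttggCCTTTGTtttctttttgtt
Sox13, intergenic, chr1:133492714-133492720, plus strand: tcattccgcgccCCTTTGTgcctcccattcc
Tbx2, intron of Bcas3, chr11:85678730-85678736, plus strand: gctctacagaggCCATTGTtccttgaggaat
Flrt2, intergenic, chr12:96362727-96362733, plus strand: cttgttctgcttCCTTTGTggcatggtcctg
Nedd9, intron, chr13:41359256-41359262, minus strand: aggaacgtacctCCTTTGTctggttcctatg

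Whole windows, the summit with 100 bp to each side, are shown for 1 strong site of each kind, as examples and not as typical of their class (plus strand, matches to SoxOct or Sox in capitals). The window near Sox21 held 1 SoxOct match and no single Sox match, and the shared window near Mobp, the gene of a myelin protein, held 3 single Sox matches among many T-rich Sox-like stretches.
Sox21, chr14:118230264-118230464: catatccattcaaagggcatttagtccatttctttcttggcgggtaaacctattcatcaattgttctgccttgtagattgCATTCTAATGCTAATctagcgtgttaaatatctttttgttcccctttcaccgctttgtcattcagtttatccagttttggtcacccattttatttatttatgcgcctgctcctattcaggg
Mobp, chr9:120149467-120149667: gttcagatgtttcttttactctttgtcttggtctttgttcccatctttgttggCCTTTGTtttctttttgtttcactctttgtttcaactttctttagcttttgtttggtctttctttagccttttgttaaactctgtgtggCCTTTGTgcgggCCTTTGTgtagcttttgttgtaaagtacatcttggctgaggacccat

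Of the Oct4-SK summits, 2227 (38.4%, 37.2 to 39.7) had an Oct4defSox2-SK summit within 100 bp, and 3566 did not. Seen from the other side, 2228 of the Oct4defSox2-SK summits (10.3%, 9.94 to 10.8) were shared and 19323 were not. Partner summits at shared sites lay a median of 33 bp apart. Nearest partners thinned out with distance, with 8.46% of Oct4-SK summits having theirs beyond 100 and up to 200 bp, 2.02% beyond 200 and up to 300 bp and 0.466% beyond 400 and up to 500 bp. In all, 751 Oct4-SK summits had their nearest partner beyond 100 and up to 1000 bp, and 2815 (48.6%) had none within 1000 bp. The corresponding numbers for Oct4defSox2-SK were 894 and 18429 (85.5%).

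Sharing rose steeply with the score, the negative decimal logarithm of the p-value that MACS2 gave each summit. Among Oct4-SK summits, 77.1% of the highest decile (scores from 19.3 to 106) and 14.9% of the lowest decile were shared. Among Oct4defSox2-SK summits the share went from 45.8% in the highest decile to 1.11% in the lowest. The 250 strongest Oct4-SK summits were found in the whole Oct4defSox2-SK list in 84.0% of cases (78.9 to 88.0), but only 33.6% (28.0 to 39.7) were among its 250 strongest. With the 1000 strongest of each list 32.1% were shared, and with 5793 of each 27.4% (26.2 to 28.5). With 4000 of each it was 30.7% (29.3 to 32.1), so at equal length the share common to both lists was lower over 5793 than over 4000 summits.

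**Figure D1:**
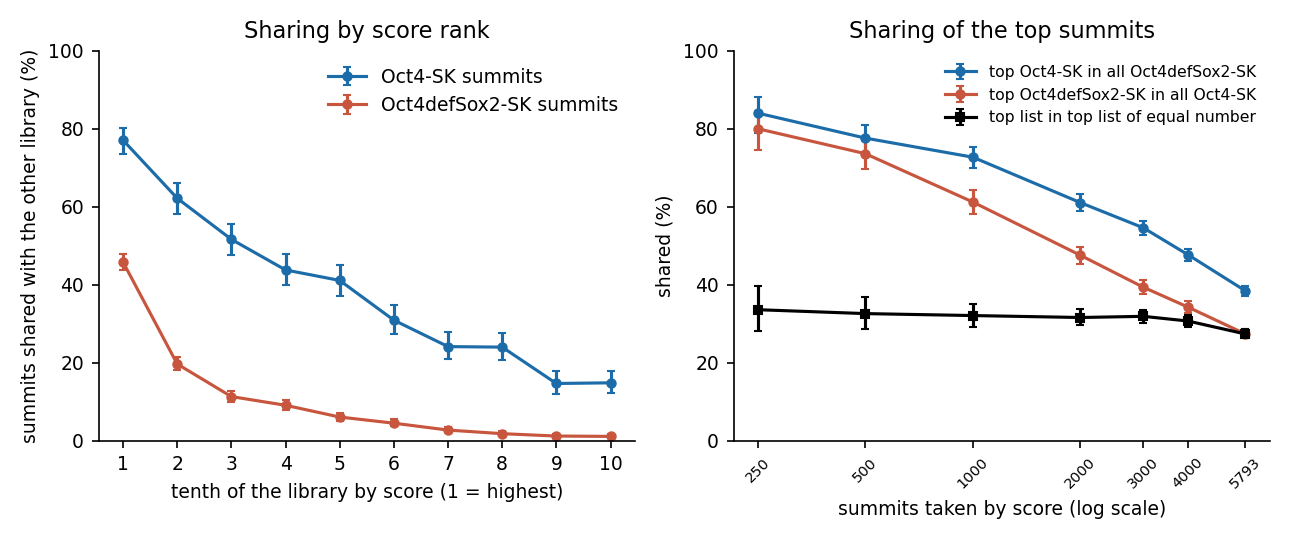
The left panel plots the percentage of summits shared within 100 bp in each decile of a library by score, and the right panel the percentage shared for the top summits of each list against the whole other list or against a top list of equal number; bars are Wilson 95% intervals. Sharing falls from 77.1% to 14.9% over the deciles of Oct4-SK and from 45.8% to 1.11% over those of Oct4defSox2-SK, while the equal-number curve stays between 33.6% and 27.4%.

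At shared sites the scores in the 2 libraries were loosely related (Spearman rho 0.33 across 2227 sites of 1 pair of libraries, given as a description). The median score was 11.9 in Oct4-SK and 20.3 at the same sites in Oct4defSox2-SK, and 1705 of the 2227 (76.6%) scored higher in Oct4defSox2-SK. Scores grow with sequencing depth, which the summit lists do not give and which was not used here, so this order may not be read as stronger binding. Shared sites scored above private ones within each library, with medians of 11.9 against 7.61 in Oct4-SK and 20.3 against 8.62 in Oct4defSox2-SK.

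Of the motifs searched, the SoxOct element differed most between the private sites as a ratio, and AP-1, described below, differed more in percentage points. SoxOct was matched in 197 of the 3566 Oct4-SK-only windows (5.52%) and in 211 of the 19323 Oct4defSox2-SK-only windows (1.09%), a difference of 4.43 percentage points (3.71 to 5.24). In fixed windows 2 kb to either side the shares were 1.21% and 0.996%, so the element stood 4.58 times above its surroundings at Oct4-SK-only sites and 1.10 times at Oct4defSox2-SK-only sites. With equal numbers it was matched in 232 of 4207 Oct4-SK-only sites (5.51%) and in 35 of 4207 Oct4defSox2-SK-only sites (0.832%). The difference held past counting error under every alternative tried.

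The octamer ATGCAAAT, which Oct4 can bind without Sox2, followed the same order. It was found in 3.22% of Oct4-SK-only and 1.05% of Oct4defSox2-SK-only windows, a difference of 2.17 points (1.62 to 2.82). Flanking windows held it in 1.42% in both cases, so the octamer was less frequent at Oct4defSox2-SK-only summits than beside them, and with equal numbers the ratio to the flanks was 0.470. MORE, the palindromic element of POU homodimers (with its variant of 1 extra base), stood at 0.897 to 1.19 times the flanks in the 4 classes. It was matched in 0.897% and 0.657% of private sites, a difference of 0.24 points whose interval (-0.0489 to 0.621) includes 0. With equal numbers the MORE difference was 0.404 points (0.0452 to 0.780), past counting error.

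**Figure D2:**
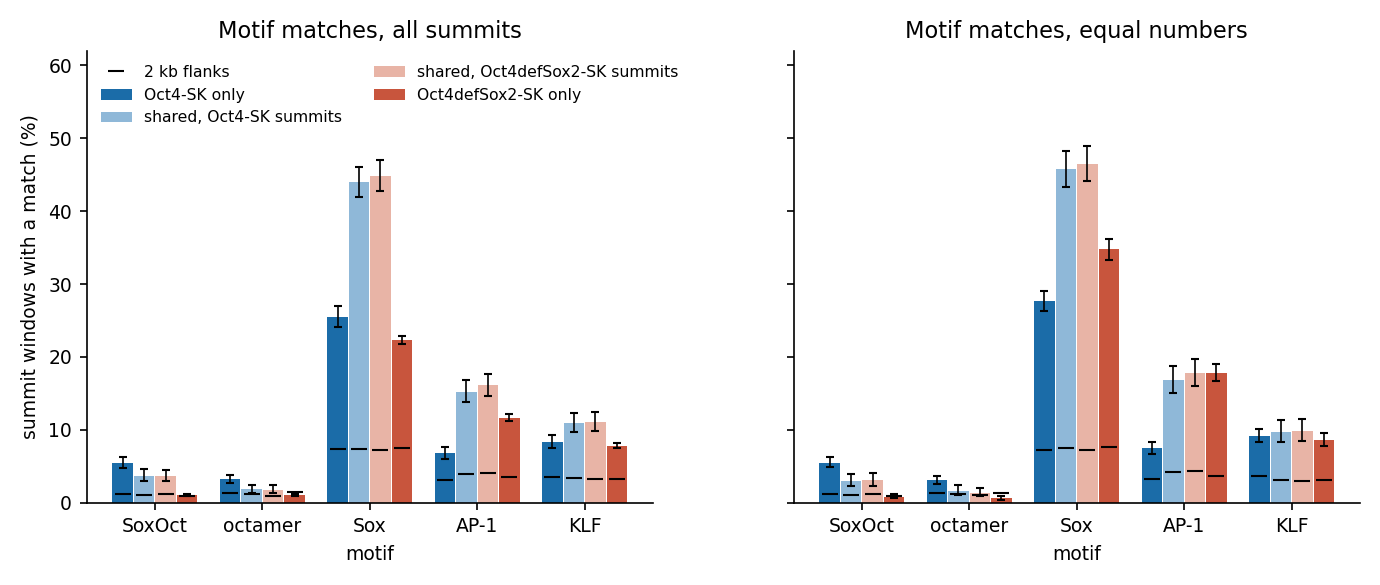
Bars give the percentage of summit windows (100 bp to each side) with a motif match in the 4 classes of site, with Wilson 95% intervals, for all summits (left) and equal numbers (right), and black dashes give the share in windows 2 kb away. SoxOct and the octamer are highest at Oct4-SK-only sites, Sox at shared sites, and AP-1 is lowest at Oct4-SK-only sites.

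Shared sites stood between the private classes for SoxOct. Within Oct4-SK they held it less often than Oct4-SK-only sites, 83 of 2227 (3.73%) against 5.52%, a difference of -1.80 points (-2.87 to -0.679). Comparing sites of like score, within deciles of the score rank, widened this difference to -3.73 points. It rests on matches with 2 mismatches, since with at most 1 mismatch the difference was 0.0119 points, and with sharing within 50 bp it was -1.03 points and not past counting error. Within Oct4defSox2-SK the order turned round: shared sites held SoxOct in 81 of 2228 cases (3.64%) against 1.09% of Oct4defSox2-SK-only sites, a difference of 2.54 points (1.83 to 3.41).

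Sharing was also read by motif, with the same SoxOct matches of up to 2 mismatches. Over all Oct4-SK summits, 29.6% (24.6 to 35.2) of sites with SoxOct, 52.7% of sites with Sox alone and 32.2% of sites with neither were shared. In the strongest tertile of Oct4-SK summits, 55 of 132 sites with SoxOct (41.7%) were shared, against 559 of 821 sites with a Sox motif but no SoxOct (68.1%), a difference of -26.4 points (-35.1 to -17.3). The middle and the weakest tertile gave -22.0 and -20.7 points. In the strongest tertile of Oct4defSox2-SK summits, by contrast, 57 of 107 sites with SoxOct (53.3%) and 776 of 2567 sites with Sox alone (30.2%) were shared, a difference of 23.0 points (13.5 to 32.4). The difference there was 9.04 points (2.55 to 17.6) in the middle tertile and 1.72 points (-1.61 to 9.02) in the weakest. In the strongest Oct4-SK tertile, 577 of 978 sites with neither were shared (58.998%, 55.9 to 62.04), against 41.7% (33.6 to 50.2) with SoxOct. In the middle and the weakest Oct4-SK tertile, sites with neither were shared in 31.9% and 14.5%. Sites with SoxOct were shared there in 24.2% and 10.5%, with overlapping intervals. So an Oct4-SK site with SoxOct was less often found with Oct4defSox2 than one with Sox alone. Against one with neither, it was found about as often over all summits but less often in the strongest tertile. An Oct4defSox2-SK site with SoxOct was more often found with Oct4.

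The spacing of the half-sites was then read without the SoxOct pattern. Windows were searched for an exact Sox core, CATTGT or CTTTGT, followed by an octamer with up to 1 mismatch, at spacers of 0 to 10 bp on either strand. The canonical spacer of 1 bp was found at 11 Oct4-SK-only sites (0.308%), at 11 shared sites seen from Oct4-SK (0.494%) and at 10 seen from Oct4defSox2-SK (0.449%). At Oct4defSox2-SK-only sites it was found in 5 of 19323 (0.0259%), close to 0.0233% in their flanks and within the range of the other spacers there (3 to 11 sites). At Oct4-SK-only sites no other spacer was found more than 4 times.

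**Figure D3:**
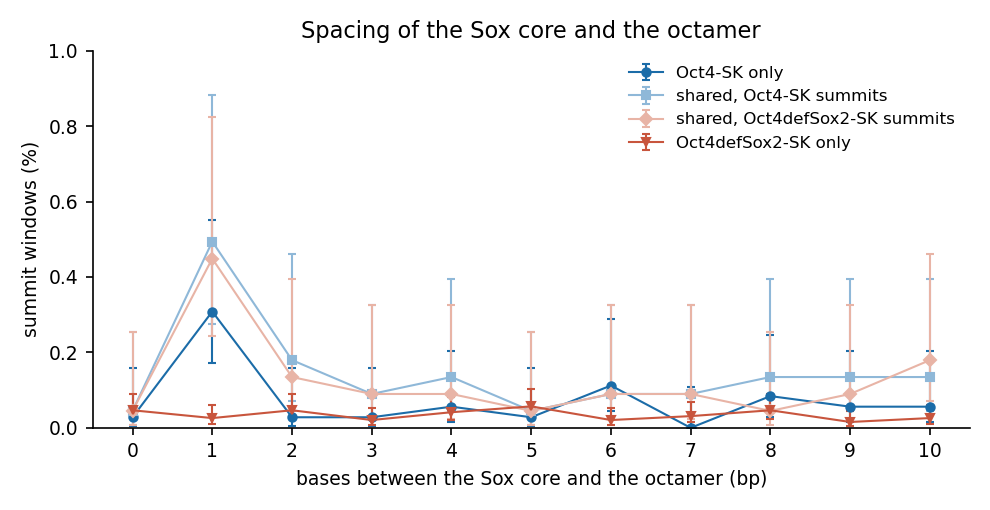
The percentage of summit windows in which a Sox core is followed by an octamer is plotted against the number of bases between them, with Wilson 95% intervals. A spacer of 1 bp stands out in Oct4-SK-only and shared sites (0.308% to 0.494%) and not in Oct4defSox2-SK-only sites (0.0259%).

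Single Sox motifs marked the shared sites most of all. They were found in 979 of 2227 shared Oct4-SK windows (44.0%), in 1000 of 2228 shared Oct4defSox2-SK windows (44.9%), in 25.5% of Oct4-SK-only and in 22.3% of Oct4defSox2-SK-only windows, against 7.27% to 7.47% in the flanks. Shared sites were thus 18.5 points (16.0 to 20.97) above private ones in Oct4-SK and 22.6 points (20.4 to 24.7) above them in Oct4defSox2-SK. Within deciles of the score rank the differences were 12.5 and 13.4 points. The share was 2.99 to 6.17 times that of the flanks in the 4 classes, so the motif of the labelled protein was enriched in both libraries. Sox cores also came in numbers: 2 or more lay in 36.4% of shared Oct4-SK windows, 18.3% of Oct4-SK-only and 17.3% of Oct4defSox2-SK-only windows, with 4.12% to 4.46% in the flanks. With equal numbers the private classes differed in this, with 19.9% of Oct4-SK-only and 30.02% of Oct4defSox2-SK-only windows (-10.1 points, -11.9 to -8.24).

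Between the private classes the order of the Sox motif depended on the length of the lists. With all summits it was 3.18 points more frequent at Oct4-SK-only sites (1.66 to 4.75), and with equal numbers 7.13 points less frequent (27.6% against 34.8%, interval -9.10 to -5.15). Sox matches also fell with the score, from 41.7% in the highest decile of Oct4defSox2-SK to 12.2% in the lowest, and from 50.7% to 20.9% in Oct4-SK. The SoxOct share of Oct4-SK fell from 7.76% to 2.94% over its deciles, whereas in Oct4defSox2-SK it lay between 0.882% and 1.86% in all of them.

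AP-1 motifs (TGACTCA), which mark active fibroblast enhancers, were the reverse of SoxOct. They were found in 6.81% of Oct4-SK-only and 11.7% of Oct4defSox2-SK-only windows, a difference of -4.87 points (-5.77 to -3.88), and with equal numbers in 7.51% and 17.8%, a difference of -10.3 points (-11.7 to -8.91). AP-1 matches fell with the score, from 13.4% in the highest to 6.91% in the lowest decile of Oct4-SK. In Oct4defSox2-SK they went from 18.1% in the highest to 7.89% in the next to lowest decile. What part the unequal score limits of equal numbers have in the wider difference was not tested. Shared sites had 15.3% in Oct4-SK and 16.1% in Oct4defSox2-SK. The KLF motif (GGGNGNGGC), read by Klf4 of both cocktails, was found in 8.36% and 7.83% of private sites, and the difference of 0.527 points (-0.420 to 1.55) was not past counting error. The same was true of TEAD (ACATTCC), the motif of the Hippo pathway factors, with 4.94% and 4.43% (0.506 points, -0.223 to 1.32), but with a minimum score of 10 the differences in KLF (2.40 points) and TEAD (1.65 points) came past counting error. RUNX (TGTGGTT) was found in 4.57% and 4.83% (-0.257 points, -0.967 to 0.535), not past counting error.

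Whether the POU factor of the same cocktail was bound at the Sox2 site was read from its own day 5 library. Oct4 had a summit within 100 bp at 472 Oct4-SK Sox2 sites (8.15%), and Oct4defSox2 had one at 75 Oct4defSox2-SK Sox2 sites (0.348%), a difference of 7.80 points (7.12 to 8.54). The Oct4defSox2 day 5 list held 1038 summits and the Oct4 list 4854, and the part of this difference in length was not tested. In the strongest decile of Sox2 sites the shares were 19.7% and 1.02%. At Oct4-SK-only sites Oct4 was found in 7.91% and at shared sites in 8.53%, a difference of 0.624 points (-0.810 to 2.12). Among sites of like score rank this turned to -3.84 points (-5.54 to -2.14), with Oct4 more often at Oct4-SK-only sites. Oct4defSox2 was found at 33 shared sites (1.48%) and 42 Oct4defSox2-SK-only sites (0.217%), a difference of 1.26 points (0.832 to 1.86).

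Oct4 occupancy and SoxOct went together. Of the 280 Oct4-SK Sox2 sites with SoxOct, 120 (42.9%) had an Oct4 summit at day 5, compared with 112 of 1797 sites with Sox alone (6.23%). At the 197 Oct4-SK-only sites with SoxOct the Oct4 share was 39.6%, and at the 83 shared ones 50.6%. Of the 211 Oct4defSox2-SK-only sites with SoxOct, 0 had an Oct4defSox2 summit at day 5, which allows a share of up to 1.79% by the Wilson interval, while 65 (30.8%) had one at day 1. Over all Oct4defSox2-SK-only sites the shares were 0.217% and 15.6%, and the Oct4defSox2 list held 31070 summits at day 1 against 1038 at day 5. Sites with SoxOct and Oct4 were shared in 35.0% of cases (27.1 to 43.9) and those with SoxOct but no Oct4 summit in 25.6% (19.5 to 32.9). Sites without SoxOct were shared in 42.0% and 38.7% with and without Oct4.

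Occupancy at day 1 gave the history of the sites. The Sox2 library of the same cocktail at day 1 had a summit at 392 Oct4-SK-only sites (10.99%) and at 1315 Oct4defSox2-SK-only sites (6.81%), 4.19 points apart (3.14 to 5.31). With equal numbers the order reversed, 11.96% against 17.9% (-5.97 points, -7.48 to -4.45). The day 1 lists themselves differed, with 15222 summits for Oct4-SK and 5794 for Oct4defSox2-SK. Shared sites were bound by Sox2 at day 1 in 31.8% (Oct4-SK) and 26.0% (Oct4defSox2-SK). For Oct4defSox2 at day 1 the order also turned with the length of the lists. Over all summits it was present at 20.9% of Oct4-SK-only and 15.6% of Oct4defSox2-SK-only sites (5.35 points, 3.95 to 6.81), and at equal numbers at 23.2% and 33.9% (-10.7 points, -12.6 to -8.78), with 51.3% of shared Oct4defSox2-SK sites. Oct4 at day 1 was higher at Oct4-SK-only sites both over all summits (10.4% against 1.57%) and at equal numbers (10.3% against 3.07%), as it was at day 7 (6.92% against 0.808% at equal numbers).

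Sites shared by both cocktails were often Sox2 sites with Oct6 too. Oct6-SK at day 5 had a Sox2 summit at 738 shared Oct4-SK sites (33.1%) and 227 Oct4-SK-only sites (6.37%), a difference of 26.8 points (24.7 to 28.9). From Oct4defSox2-SK the values were 33.2% and 3.42%, a difference of 29.7 points (27.8 to 31.7). Within deciles of the score rank the differences were 17.8 and 19.6 points.

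**Figure D4:**
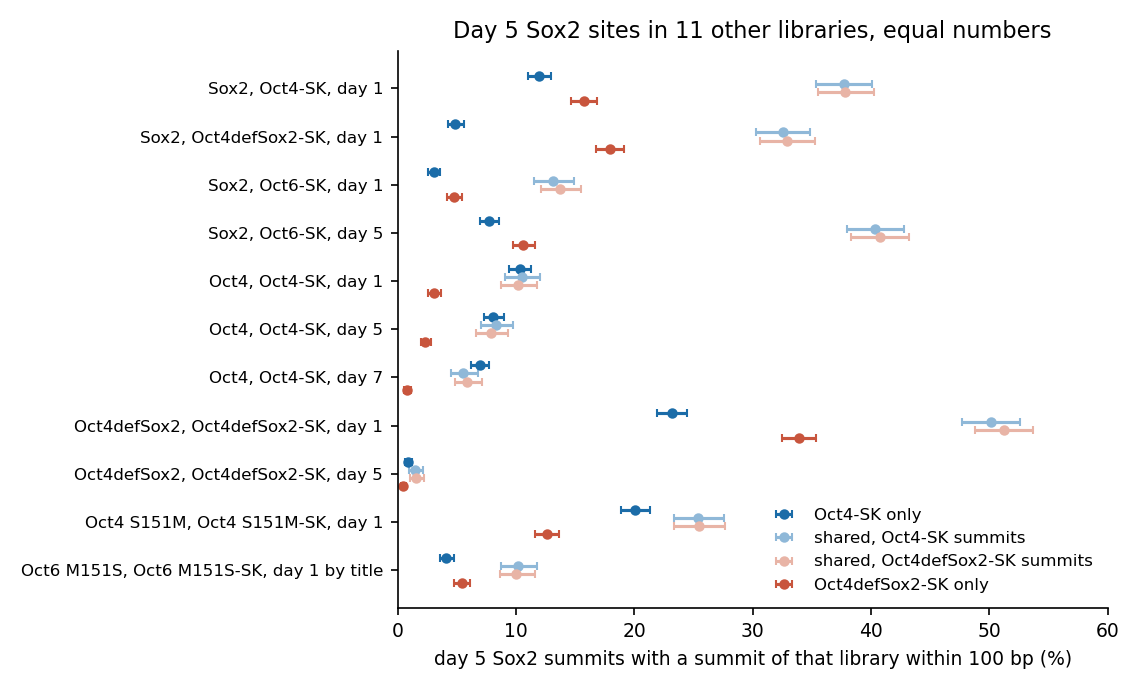
Each point is the percentage of day 5 Sox2 summits of a class, at equal numbers, that have a summit of another library within 100 bp, with Wilson 95% intervals. Shared sites lie highest for Sox2 libraries, and in the Oct4 libraries of Oct4-SK the Oct4-SK-only sites lie near the shared sites while Oct4defSox2-SK-only sites lie lowest.

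Position relative to genes was then compared. Summits within 1 kb of a transcription start made up 10.6% of Oct4-SK-only and 11.97% of Oct4defSox2-SK-only sites, a difference of -1.34 points (-2.41 to -0.191) that changed sign with equal numbers (1.31 points, -0.0107 to 2.63). Introns held 49.3% and 50.8% and intergenic sequence 43.8% and 42.9% over all summits, and with equal numbers 48.9% and 54.1%, and 44.2% and 40.3%. Coding exons held 2.02% of Oct4-SK-only and 1.37% of Oct4defSox2-SK-only sites (0.648 points, 0.1999 to 1.19), and the difference was 0.975 points (0.473 to 1.496) with equal numbers. The median distance to a start was 14831 bp for Oct4-SK-only, 14069 bp for shared Oct4-SK and 15442 bp for Oct4defSox2-SK-only sites, and the median GC content of the windows was 44.3%, 44.8% and 44.3%.

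Several of the highest scores lay in coding exons of Sox17, Pou5f1 and Sox2. The first Oct4defSox2-SK summit (281) was in Sox17, an endoderm factor, and lay 165 bp from an Oct4-SK summit of score 79.1 in the same exon, so that both counted as private. Sox17 exons held 3 Oct4-SK and 2 Oct4defSox2-SK summits. At Pou5f1, a coding exon held a shared summit (scores 102 and 281, rank 3 and 2), with 2 more Oct4defSox2-SK summits in exons. Sox2 exons held 2 summits in each library (best scores 51.7 and 178). Klf4 exons held 0 and 1. Oct4, Sox2 and Klf4 were carried as coding sequences by the viruses, and reads from these align to the exons of the genes; what part this has in those summits was not tested. Leaving out all exon summits of the 4 genes left sharing at 38.4% and 10.3%.

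Among the strongest private sites, distance mattered. The Sox21 site printed above scored 81.7 in Oct4-SK (rank 6) and its nearest Oct4defSox2-SK summit was 291 bp away. A second Oct4-SK summit beside it, of score 52.8, was shared with an Oct4defSox2-SK summit of score 170. The SoxOct window itself had Oct4 summits at days 1, 5 and 7 (scores 77.4, 53.9 and 48.9), Oct4defSox2 at day 1 (222) and Sox2 in both cocktails at day 1 (72.7 and 87.0), but none of Oct4defSox2 at day 5. In contrast, 2 strong Oct4-SK-only sites had no Oct4defSox2-SK summit within 50 kb, one near Ankub1 (39.0) and one in an intron of Nr1h4, the bile acid receptor gene (38.9). Sox2 was bound at both on day 1 in both cocktails, with scores of 28.6 and 55.6 in Oct4-SK and 18.8 and 13.6 in Oct4defSox2-SK.

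The SoxOct sites at Pcdh9, a protocadherin gene, and Syk, a tyrosine kinase gene, were also distant from any Oct4defSox2-SK summit, by 76739 and 25712 bp. Their Sox2 scores were 30.4 and 28.2. Oct4 was bound at both on all 3 days, with scores of 101.5, 44.1 and 14.4 at Pcdh9 and of 43.0, 47.6 and 121 at Syk. Oct4defSox2 was bound there at day 1 (23.6 and 94.7) and not at day 5. The Oct4defSox2 list at day 5 was the shorter one (1038 summits against 31070 at day 1).

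Among shared sites, the one near Sox13, an HMG-box gene, was the highest of Oct4-SK (106, and 158 in Oct4defSox2-SK), and the one at Mobp was second (102 and 265). The shared site in Bcas3, nearest to the start of Tbx2, scored 56.9 and 161. None of the 3 had an Oct4 summit on any day, and all had Sox2 in Oct6-SK at day 5 (38.5, 68.4 and 42.9). The shared SoxOct site in Palld, an actin-associated protein, scored 52.8 and 68.9 and had Oct4 at days 5 and 7 (19.9 and 51.2). The one nearest BC052040 scored 29.3 and 103 and had Oct4 on all days (27.1, 51.3 and 39.3).

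Of Oct4defSox2-SK-only sites, the one 387742 bp from any Oct4-SK summit lay nearest to the start of Flrt2, an adhesion molecule gene, and scored 145. It had Oct4defSox2 at day 1 (61.9) and Sox2 at day 1 in all 3 cocktails (29.9 in Oct4defSox2-SK itself). The Nedd9 site (84.3), 71 bp from the start of this focal adhesion scaffold gene, had its nearest Oct4-SK summit 222 bp away. Other high Oct4defSox2-SK-only sites were near misses of the 100-bp rule, such as the one nearest Zfp352 (199, partner at 126 bp) and the one near Smarca2 (109, partner at 113 bp).

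Genes were then described by summits within 50 kb of a coding start. Over all 21911 coding genes, 23.9% had an Oct4-SK summit, 58.8% an Oct4defSox2-SK summit and 22.3% one of the 5793 strongest Oct4defSox2-SK summits. An Oct4-SK-only summit was near 16.3% (18.9% with equal numbers), a shared Oct4-SK summit near 10.2%, and with equal numbers an Oct4defSox2-SK-only summit near 17.6%. The lists hold 7 to 25 genes and carry no test, and their counts are to be read beside these shares.

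Of 25 pluripotency genes, 6 had an Oct4-SK summit (Pou5f1, Sox2, Nanog, Klf2, Fgf4 and Mycn), 13 an Oct4defSox2-SK summit and 5 at equal numbers, all near the background over coding genes. Pou5f1 had 5 Oct4-SK summits, of which 4 were Oct4-SK-only. One was the upstream SoxOct site printed above (score 13.6), with Oct4 at day 5 and Sox2 at day 1 of the same cocktail and no Oct4defSox2-SK summit within 2216 bp. A further 2 lay in introns of the neighbour Tcf19 (22.7 and 10.2). The remaining one (9.63) also held a SoxOct match with 2 mismatches, and its nearest Oct4defSox2-SK summit was 661 bp away. Nanog, the homeobox factor of the naive state, had a shared site 4421 bp from a start with a Sox motif and scores of 11.9 and 5.95. Fgf4, a classic target of Oct4 and Sox2, had 2 shared sites. Esrrb, Zfp42, Dppa3, Dppa4, Utf1 and Lin28a had no summit in either library.

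The 19 mesenchymal genes differed most of the 8 lists between the cocktails at equal numbers, with a summit at 10 for Oct4-SK and 4 for Oct4defSox2-SK (14 in its whole list). Over all coding genes 23.9% had an Oct4-SK summit, 22.3% an equal-number Oct4defSox2-SK summit and 58.8% one of its whole list. Of the 15 Oct4-SK summits near mesenchymal genes 4 were shared, against 38.6% near all coding genes. Prrx1, a homeobox factor of mesenchyme, had 2 Oct4-SK summits (9.63 and 7.49) and none among all Oct4defSox2-SK summits. Runx1, a Runt factor, had 2 (9.63 and 5.29) against 1 (5.27). Vim, the intermediate filament of fibroblasts, had 1 against 6 in the whole list, and 1 at equal numbers. Of 15 neural genes, 6 had an Oct4-SK and 3 an equal-number Oct4defSox2-SK summit (11 in the whole list). Pax6, Nes and Cdh4 had 1 Oct4-SK summit each and none with Oct4defSox2, whereas 2 of 3 at Dll1, a Notch ligand, were shared (12.7 and 18.5, against 14.0 and 44.9).

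Epithelial genes had an Oct4-SK summit in 8 of 16 cases and an Oct4defSox2-SK summit in 6 at equal numbers (14 in the whole list). Krt8 and Krt18, neighbouring keratin genes, had the same shared summit (15.3 and 44.9). Cdh1, the gene of E-cadherin, had 1 intronic Oct4-SK-only summit with a Sox motif (9.78) and 1 weak Oct4defSox2-SK-only summit elsewhere (5.95). Of 7 Klf genes outside the pluripotency list 6 had an Oct4-SK summit and 4 an equal-number Oct4defSox2-SK summit (6 in the whole list). Klf13 had the shared SoxOct site printed above, with scores of 55.2 and 48.3. Klf6, an early response factor, had 0 against 7 in the whole list and 3 at equal numbers, with scores of 23.9, 22.1 and 20.3.

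The 15 Sox genes had a summit in 9 cases for Oct4-SK and 8 for Oct4defSox2-SK at equal numbers (12 in its whole list), and 11 of the 19 Oct4-SK summits near them (57.9%) were shared, against 38.6% near all coding genes. Sox13 had 3 summits in Oct4-SK and all 3 were shared, with scores of 54.2, 7.86 and 48.1 against 119, 28.0 and 121. Sox11 also had 3 of 3 shared (14.4, 17.9 and 7.49, against 14.3, 7.24 and 12.4), and Sox10, a neural crest factor, had 1 Oct4-SK summit and none with Oct4defSox2. AP-1 genes had a summit in 5 of 10 cases against 3 at equal numbers (7 in the whole list). Atf3 had 2 and 0, and Fosl2 0 and 4 (1 at equal numbers). TGF-beta genes had a summit in 5 of 14 cases for Oct4-SK and 5 at equal numbers for Oct4defSox2-SK (10 in its whole list). Tgfbr2, the type II receptor, had 3 Oct4-SK summits of which 2 were shared (14.4 and 17.0, against 28.8 and 8.62), and Tgfbr1 had none against 3 (2 at equal numbers).

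**Figure D5:**
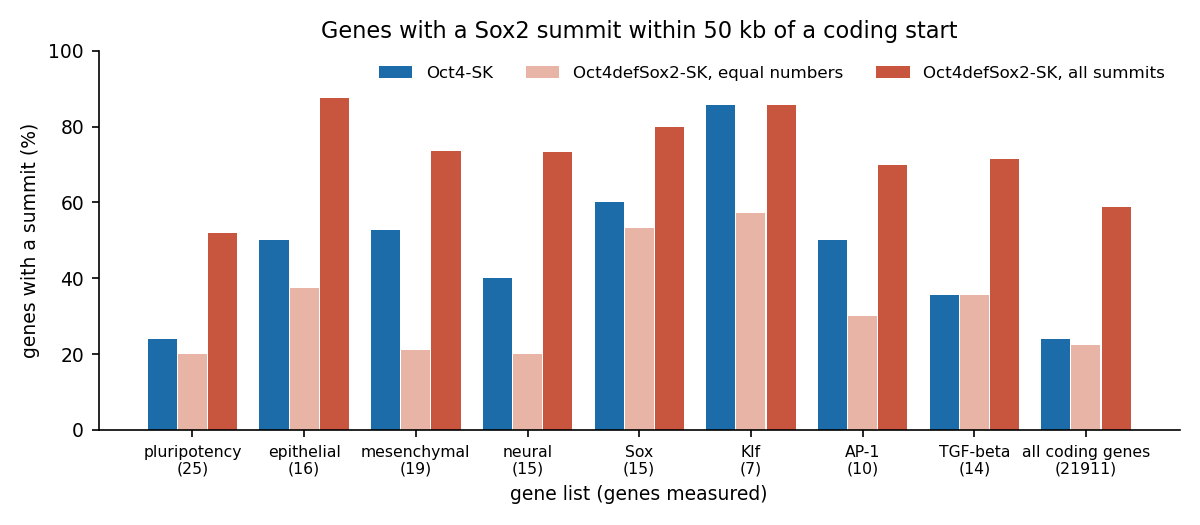
Bars give the percentage of genes in each list, with the number of genes measured in brackets, that have a Sox2 summit within 50 kb of a coding start, and the last group gives all coding genes. Mesenchymal genes show 10 of 19 with Oct4-SK and 4 of 19 with equal-number Oct4defSox2-SK summits, beside 23.9% and 22.3% of all coding genes.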

How the data were processed

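The authors aligned paired-end reads to mm10 with Bowtie2 2.2.5, filtered and deduplicated them with SAMtools and called summits with MACS2 per library, with a stated p-value threshold of 0.0001 (the lowest score of the Oct6 M151S list, 2.30, lies below it). The deposited value of each summit is the −log10 of that p-value, unscaled between libraries. Read depth is not in these lists, and the inputs, the narrowPeak tables and 39 Oct4-SK and 12 Oct4defSox2-SK summits off chromosomes 1 to 19, X and Y were left out. The files' coordinates were checked against GRCm38, from which windows of 100 bp to each side were read (GENCODE M21 basic for genes). Motifs were consensus strings on both strands: SoxOct (up to 2 mismatches), MORE (up to 1), others exact. Shares have Wilson and differences Newcombe 95% intervals. Differences within deciles of the score rank are averages with normal intervals.

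Sites named were the 6 strongest of each class, plus the 4 strongest with SoxOct (Oct4-SK-only, shared) or Sox (Oct4defSox2-SK-only), from which examples are given. Genes named had 3 or more summits in a library, or summits in 1 library at equal numbers, and others were chosen after their values were seen. The members and lists were chosen with earlier results of these data known. Alternatives were other sharing distances (50 and 250 bp), equal numbers, a minimum score of 10, 1 summit per peak, other motif settings and promoter distances, and leaving out sites with all 3 antibodies. Score deciles, leaving out near misses and leaving out exons of the cocktail genes and Sox17 were added after seeing the data. Calculations used Python 3.11.15, numpy 2.4.6, pandas 2.3.3 and scipy 1.17.1 and were tested on simulated data. Figures used matplotlib 3.10.9.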

Additional observations from a re-analysis of the deposited data

How the results depend on the processing

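Sharing moved with the sharing distance, by construction, and with the choice of summits. The share of Oct4-SK and of Oct4defSox2-SK summits shared was 25.9% and 6.96% at 50 bp, 48.1% and 12.98% at 250 bp, 52.0% and 13.3% with a minimum score of 10, 27.4% in both with equal numbers, 36.7% and 9.66% without sites of all 3 antibodies, and 44.2% and 10.8% without near misses (nearest partner beyond 100 and up to 1000 bp). Between the private classes (Oct4-SK-only minus Oct4defSox2-SK-only, percentage points), SoxOct kept its direction and stayed past counting error in 11 of 11 alternatives (0.774 to 11.1), and so did the octamer and AP-1 in 10 of 10 each. Equal numbers reversed Sox (-7.13) and Sox2 at day 1 (-5.97). MORE passed counting error at 50 bp (0.297), with a minimum score (0.662), equal numbers (0.404), a looser match (1.56) and a narrower window (0.211). A minimum score also brought KLF (2.40) and TEAD (1.65) past counting error and changed the sign of RUNX (0.219), and KLF was -0.0123 without near misses. Promoter summits gave -1.02 at 50 bp, 0.675 with a minimum score, 1.31 with equal numbers and 0.139 within 5 kb. Between shared and Oct4-SK-only sites, SoxOct gave -1.03 at 50 bp, no longer past counting error, and 0.0119 with a stricter match, and Oct4 at day 5 gave -4.60 with a minimum score and -3.84 within deciles of the score rank. Apart from the changes of sharing with distance, the cause of these changes was not tested. The other 179 values kept their direction and their side of counting error, or moved by less than it. No paired analysis was possible because each group had 1 library. Sequencing depth was not used here, so sites missing from the shorter Oct4-SK list cannot be told apart from sites below its limit of detection.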

Other observations

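Repeats and the X chromosome were also described. Summits on soft-masked repeat sequence made up 17.5% of Oct4-SK-only and 11.05% of shared Oct4-SK sites, a difference of -6.45 points (-8.23 to -4.62). In Oct4defSox2-SK the shares were 16.7% of private and 11.8% of shared sites (-4.88 points, -6.27 to -3.38), and with equal numbers the difference was -1.37 points (-3.11 to 0.488), no longer past counting error. Chromosome X held 0.813% of Oct4-SK-only and 1.34% of Oct4defSox2-SK-only sites (-0.527 points, -0.828 to -0.143).

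The compressed SoxOct element, in which the spacer base is missing, showed no difference past counting error between the private classes. With equal numbers it was matched at 65 of 4207 Oct4-SK-only and 65 of 4207 Oct4defSox2-SK-only sites (1.55% each, difference 0 with an interval of -0.534 to 0.534). Shared Oct4defSox2-SK sites had it less often than private ones, 0.757% against 1.55% (-0.788 points, -1.32 to -0.137), but over all summits the difference was not past counting error (-0.127 points, -0.506 to 0.404).

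Oct4-SK-only sites with SoxOct had a day 1 summit of Oct4defSox2 at 112 of 197 (56.9%) and a day 5 summit at 7 (3.55%), against 20.9% and 0.813% of all Oct4-SK-only sites, from lists of 31070 and 1038 summits. Sox2 of Oct4-SK was there at day 1 in 46 cases (23.4%) and Sox2 of Oct4defSox2-SK in 9 (4.57%), against 10.99% and 4.15% of all Oct4-SK-only sites. Shared Oct4-SK sites with SoxOct had Oct4defSox2 at day 1 in 64 of 83 cases (77.1%), against 45.9% of all shared Oct4-SK sites.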
